A study of Mus musculus with 2 samples.

Results

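The DNA replication and S-phase genes examined here were 41 genes, chosen by symbol from the 32285 genes of a single-cell RNA sequencing series on mouse melanoma, and all 41 were detected in every group. B16F10 is an established mouse melanoma line. Living cells that carried GFP and lacked CD45 (GFP+CD45-DAPI-) had been sorted from the lungs of wild-type mice (WT lung), the lungs of perforin-null mice (Prf1-/- lung) and the crushed knees of perforin-null mice (Prf1-/- bone). Perforin, the product of Prf1, lets T and NK cells make pores in their targets, and its deletion was in the host and not in the tumour cells. Tumours cut from lungs were digested for 20 min and knees for 30 min, so site and digestion cannot be told apart, and the number and age of the mice and the time in the host are not given in the sources used here. Cells of each source carried their own hashtag antibody, 3 in all, and went through a single run that gave 1 RNA library and 1 hashtag library. Each group is therefore 1 sample without a replicate, and no test was made. All intervals are 95% intervals for counting error only, which hold no spread between animals. Those for levels and ratios also leave out the spread between cells of a group.

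A cell copies its genome once per division, in S phase. In G1 the origins of replication are licensed, when Cdc6 and Cdt1 load the Mcm2-7 ring onto DNA, and geminin (Gmnn) later binds Cdt1 so that no origin is licensed again. Cyclin E and its kinase then help to release E2F factors from Rb. E2F drives transcription of most genes of the replication fork, so their mRNAs peak together around the G1/S border and in S phase. Tumour lines that divide fast, B16F10 among them, hold many such cells at any time.

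The promoters of the members were looked at for the letters that E2F factors bind, because the members are a textbook E2F-driven set. Of the 41 members, 33 had an entry in the RefSeq promoter table (GRCm38.p6, the build that mm10 names), and the 250 bases before each start were searched on both strands for TTTGGCGC, TTTCCCGC, TTTCGCGC and TTTGCCGC. At least 1 of these stood before 9 of the 33 members (27.3%), against 583 of all 27025 genes of the table (2.16%). Among other replication genes outside the 41, a list described further on, the share was about the same, 15 of 54 (27.8%). The matches were in Mcm5, Mcm6, Mcm7, Cdc6, Pola1, Hells, Uhrf1, Cdca7 and Dtl. The last 4 of these 9 were among the 7 members called higher in bone than in Prf1-/- lung, where 2.64% of all genes were. The other matched members were not called there, while Cdt1, Rpa2 and Ung were called without a match. Whether matches go with calls was not tested. The 60 bases around the matches are shown with the matched letters in capitals, 5′ to 3′ on the gene's own strand.
Mcm5: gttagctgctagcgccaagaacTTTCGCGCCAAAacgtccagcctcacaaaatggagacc
Mcm6: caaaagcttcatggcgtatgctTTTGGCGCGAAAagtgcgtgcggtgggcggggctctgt
Mcm7: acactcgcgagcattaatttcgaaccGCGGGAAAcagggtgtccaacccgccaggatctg
Cdc6: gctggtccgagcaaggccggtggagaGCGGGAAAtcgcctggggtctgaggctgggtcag
Pola1: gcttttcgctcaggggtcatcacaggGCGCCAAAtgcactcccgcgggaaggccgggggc
Hells: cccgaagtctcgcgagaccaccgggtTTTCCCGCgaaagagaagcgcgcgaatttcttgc
Uhrf1: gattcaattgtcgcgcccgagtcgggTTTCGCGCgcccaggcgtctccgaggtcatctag
Cdca7: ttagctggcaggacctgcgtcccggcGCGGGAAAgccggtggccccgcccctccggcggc
Dtl: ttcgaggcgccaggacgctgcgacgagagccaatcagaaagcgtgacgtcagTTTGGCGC

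On the plus strand these stretches lie at chr8:75109334-75109393 for Mcm5, chr11:98907987-98908046 for Cdc6, chr19:38930902-38930961 for Hells, chr17:56304102-56304161 for Uhrf1 and chr2:72476122-72476181 for Cdca7. The minus-strand stretches are chr1:128359778-128359837 for Mcm6, chr5:138172015-138172074 for Mcm7, chrX:93632260-93632319 for Pola1 and chr1:191575545-191575604 for Dtl. In Mcm5 and in Mcm6 the capitals are 2 overlapping matches on opposite strands, and Mcm6 has another match nearer to its start. In Dtl the match is the last 8 bases before the start. By role, a match stood before 4 of 7 licensing genes and 4 of 7 chromatin and checkpoint genes in the table, but before none of the 4 nucleotide supply genes. The CCAAT box, searched as CCAAT on both strands, stood before 19 of the 33 members (57.6%), 29 of 54 other replication genes (53.7%) and 37.5% of all genes. Among 32 genes of mitosis in the table, 1 had an E2F-type match (3.13%) and 25 a CCAAT box (78.1%). A match is only a run of letters in this window, not a shown site of binding.

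Kept barcodes had at least 1000 genes and at most 15% mitochondrial unique molecular identifiers (UMIs, the counted molecules). A hashtag group was given by the largest hashtag count where it was at least 2 times the second. This left 1227 barcodes in WT lung (median 2909 UMIs), 1520 in Prf1-/- lung (2826.5), 385 in Prf1-/- bone (3107) and 242 with mixed hashtags (3695.5). A further 6270 kept barcodes (median 2418 UMIs) were not listed in the hashtag matrix, whose smallest total was 503 counts. Their source is unknown, and they are given as a group of their own. The RNA and hashtag matrices shared 4204 barcodes, and 2004 stood in the hashtag matrix alone.

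The sorted cells carried melanoma markers in every group. The 10 melanoma markers summed to 14845 CPM (UMIs per 1000000 UMIs of the group) in WT lung, 15069 in Prf1-/- lung, 11487 in Prf1-/- bone and 13596 in the unlisted barcodes. Epithelial markers summed to 198 CPM in WT lung and 13.3 to 30.7 CPM in the other 3 groups. Across these 4 groups the lists for T and NK cells, B and plasma cells, neutrophils, progenitors, and bone and cartilage cells reached at most 5.59 CPM. Myeloid markers were at 2.33 to 18.1 CPM, endothelial markers at 13.1 to 23.3 CPM and stromal markers at 7.70 to 12.7 CPM in the hashtag groups and 37.6 CPM in unlisted barcodes. Erythroid markers were at 29.2 to 49.6 CPM, of which Tfrc, the transferrin receptor that dividing cells of many kinds express, made 25.4 to 40.6. Only 5 kept barcodes had more epithelial than melanoma UMIs, too few to measure the level of the members in cells that do not divide, so the share of UMIs that is free RNA was not measured.

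Summed over the 41 genes, the level was highest in bone and lowest in perforin-null lung among the hashtag groups. It was 2216 CPM in WT lung (2169.6 to 2264), 2049.8 CPM in Prf1-/- lung (2009 to 2091) and 2560.3 CPM in Prf1-/- bone (2474 to 2649). Unlisted barcodes were at 2459.5 CPM (2436 to 2484) and mixed-hashtag barcodes at 2384 CPM (2288 to 2483). None of the intervals of the 3 hashtag groups overlap. The ratio of Prf1-/- lung to WT lung was 0.925 (0.898 to 0.952), that of bone to Prf1-/- lung 1.25 (1.20 to 1.30), and that of bone to WT lung 1.16 (1.11 to 1.20). These comparisons share groups, so they are not independent of each other. In pooled sums, more cells in S phase and more RNA per cell cannot be told apart, and shares of barcodes are given further on. Levels are CPM of molecules counted at the 3' end, not divided by length, and are compared between groups for 1 gene, not between genes.

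**Figure D1:**
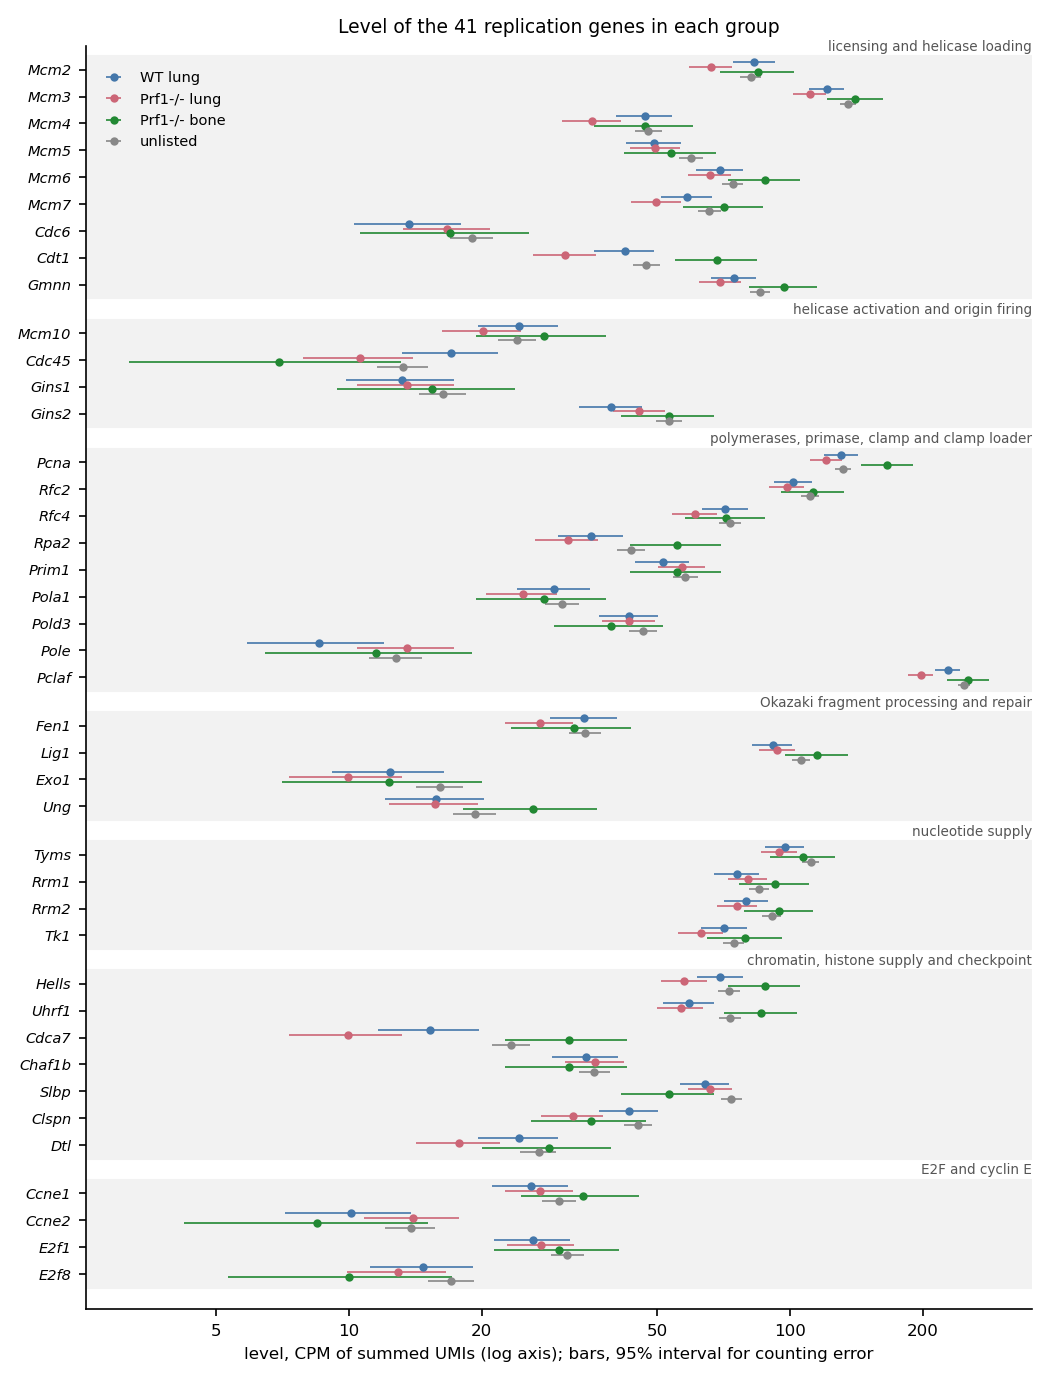
Level of each of the 41 genes (CPM of summed UMIs, log axis) in WT lung, Prf1-/- lung, Prf1-/- bone and unlisted barcodes, ordered by role, with 95% intervals for counting error. Cdt1 and Cdca7 are the genes whose bone interval lies wholly above the intervals of both lung groups by the widest margin.

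A gene was called higher or lower in a comparison where its ratio was at least 1.5-fold and its interval left out 1, among genes whose mean over both groups reached 10 CPM. In bone against Prf1-/- lung 7 of the 40 members tested were higher and none lower, against 7.49% of all 7695 genes called, 2.64% higher and 4.85% lower. The 7 were Cdca7, Cdt1, Rpa2, Ung, Dtl, Uhrf1 and Hells. Of the 40 members, 33 had a ratio above 1, and the median log2 ratio was 0.29, with -0.03 over all genes. In bone against WT lung 4 members were higher (Cdca7, Ung, Cdt1 and Rpa2) and 1 lower (Cdc45) of 40, against 7.58% of all genes called, 2.28% higher and 5.29% lower, with a median log2 ratio of 0.20. In Prf1-/- lung against WT lung 1 member was higher (Pole) and 2 lower (Cdc45 and Cdca7) of 41, against 1.76% of all genes called, 0.684% higher and 1.07% lower. There the median log2 ratio was -0.10 over the members and 0.00 over all genes, and 28 of 41 members had a ratio below 1.

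**Figure D2:**
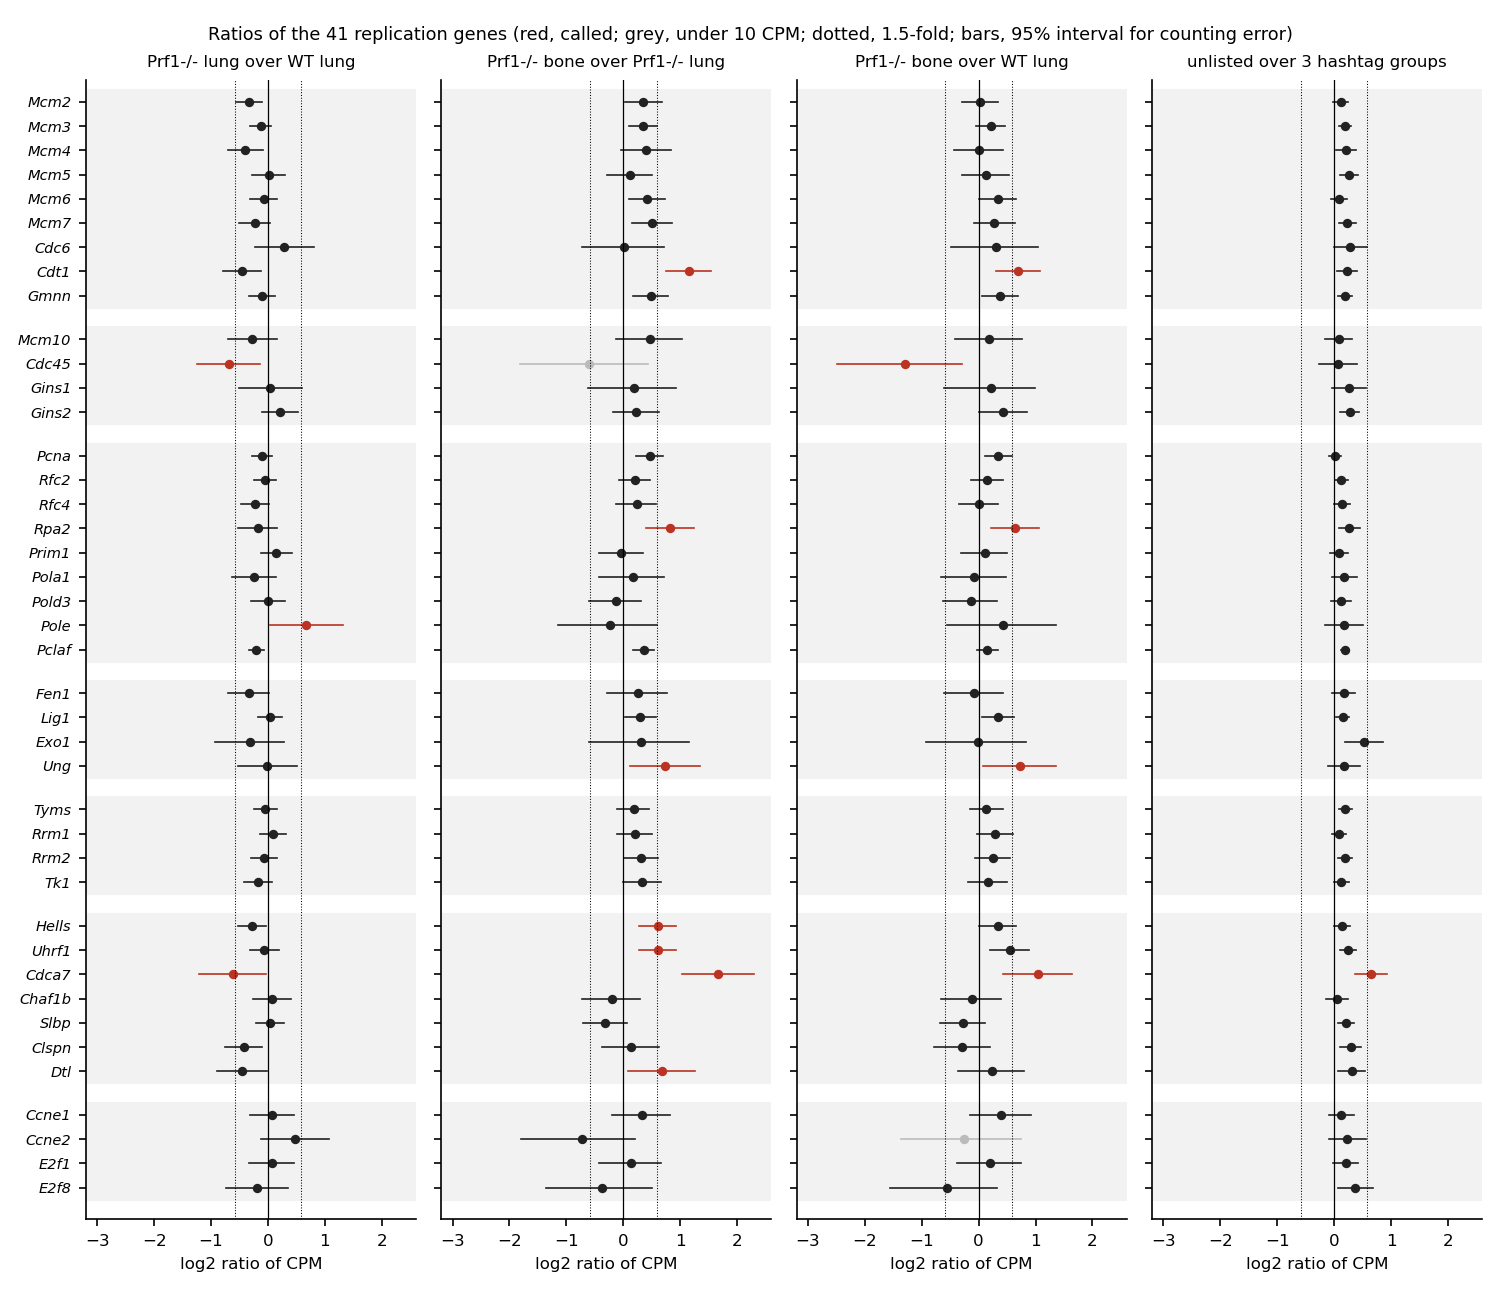
Log2 ratio of CPM of each of the 41 genes in the 4 comparisons, with 95% intervals for counting error, dotted lines at 1.5-fold, called genes in red and untested ones in grey. In bone over Prf1-/- lung 33 of the 40 tested points lie right of 0 and 7 are red, while in unlisted over hashtag barcodes all 41 points lie right of 0 and 1 is red.

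Among the licensing genes, all 9 had a ratio above 1 in bone against Prf1-/- lung, and their sum was 1.35 times that of Prf1-/- lung (1.25 to 1.46). Cdt1, which loads the Mcm ring, was at 42.2 CPM in WT lung (35.9 to 49.2), 30.9 CPM in Prf1-/- lung (26.1 to 36.3) and 68.5 CPM in Prf1-/- bone (55.0 to 84.3). The bone interval overlaps neither lung interval. The Cdt1 ratio was 2.22 (1.68 to 2.91) against Prf1-/- lung and 1.62 (1.24 to 2.12) against WT lung. It stayed called against Prf1-/- lung in all 11 alternative settings, between 1.80 and 2.38. A Cdt1 UMI was found in 11.2% of WT lung, 8.55% of Prf1-/- lung and 17.7% of bone barcodes. With each barcode thinned to 1500 UMIs these shares were 5.31% (4.11 to 6.70), 4.11% (3.14 to 5.20) and 8.46% (5.97 to 11.8).

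Geminin, the Cdt1 inhibitor, was at 74.5 CPM in WT lung, 69.4 CPM in Prf1-/- lung and 97.0 CPM in bone. Its ratio in bone against Prf1-/- lung was 1.40 (1.13 to 1.72), under the 1.5-fold threshold. The subunits of the Mcm2-7 ring had ratios between 1.09 (Mcm5) and 1.42 (Mcm7) in that comparison, none called. Mcm3 was at 121 CPM in WT lung, 111 CPM in Prf1-/- lung and 141 CPM in bone. The WT lung interval of Mcm3 (111 to 133) overlapped both others, while those of Prf1-/- lung (101.8 to 120.99) and bone (121.16 to 163) lay just apart. For Mcm2 the values were 83.0, 66.2 and 84.6 CPM, and for Mcm6 69.3, 65.8 and 87.7 CPM. In Mcm2 the WT lung and bone levels lay close together and the Prf1-/- lung level was lowest. Cdc6, the other loader, had 1.01 times the Prf1-/- lung level in bone, so of the 2 loaders Cdt1 alone was called.

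Helicase activation genes (Mcm10, Cdc45, Gins1 and Gins2) summed to 93.9 CPM in WT lung, 89.7 CPM in Prf1-/- lung and 103 CPM in bone. The intervals of all 3 overlap. Cdc45, which joins the Mcm ring and the GINS complex into the active helicase, was called lower than in WT lung in both other hashtag groups. It was at 17.1 CPM in WT lung (13.2 to 21.7, 66 UMIs), 10.6 in Prf1-/- lung (7.85 to 13.9, 50 UMIs) and 6.93 in bone (3.17 to 13.1, 9 UMIs). The ratio to WT lung was 0.620 in Prf1-/- lung (0.420 to 0.908) and 0.406 in bone (0.178 to 0.818). Bone against Prf1-/- lung was not tested, as the mean was under 10 CPM. The Cdc45 calls rest on few molecules: each was kept in 9 of 11 alternative settings, and neither with a hashtag ratio of at least 5. Gins2, a GINS subunit, was at 39.3, 45.5 and 53.1 CPM in the same order of groups, with no ratio called.

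The polymerase, primase, clamp and clamp loader genes summed to 1.23 times the Prf1-/- lung level in bone (1.14 to 1.32). Pclaf, a small protein that binds the clamp, had the most UMIs of all members, at 228 CPM in WT lung (213 to 244), 198 in Prf1-/- lung (186 to 211) and 254 in bone (227 to 283). Its Prf1-/- lung level lay below both others and those overlapped. Pcna, the sliding clamp, was at 131 CPM (119 to 143), 121 (111 to 131) and 166 (145 to 190). The Pcna interval in bone lay above both lung intervals, yet the ratio to Prf1-/- lung was 1.38 (1.17 to 1.61) and not called. Rfc2, a clamp loader subunit, was at 102, 98.4 and 113 CPM with all intervals overlapping.

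Rpa2, a subunit of the protein that coats single-stranded DNA, was called in bone against both lung groups. It was at 35.4 CPM in WT lung (29.8 to 41.9), 31.3 in Prf1-/- lung (26.5 to 36.8) and 55.4 in bone (43.4 to 69.8), which gave ratios of 1.56 (1.16 to 2.09) and 1.77 (1.32 to 2.36). The call against Prf1-/- lung was kept in 9 of 11 alternative settings and that against WT lung in 7, where the ratio went down to 1.18. The thinned share of barcodes with an Rpa2 UMI was 4.50%, 3.95% and 6.71%. The primase and polymerase subunits Prim1, Pola1, Pold3 and Pole had ratios of 0.974, 1.12, 0.909 and 0.853 in bone against Prf1-/- lung, none called. Pole, the catalytic subunit of the leading-strand polymerase, was the 1 member called higher in Prf1-/- lung than in WT lung, at 13.5 CPM (10.4 to 17.3) and 8.54 CPM (5.88 to 11.99), with overlapping intervals and a ratio of 1.59 (1.03 to 2.49). In bone Pole was at 11.5 CPM (6.46 to 19.0), and its call in the lung comparison was lost in 4 of 11 alternative settings.

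Of the genes that process Okazaki fragments and repair DNA, Lig1, the ligase that joins the fragments, was at 91.3 CPM in WT lung, 93.7 CPM in Prf1-/- lung and 115 CPM in bone. Ung, which removes uracil from DNA, was at 15.8 CPM (12.1 to 20.3), 15.7 (12.3 to 19.7) and 26.2 (18.1 to 36.6). The lung levels of Ung lay together and the bone level was higher, with ratios of 1.67 (1.08 to 2.54) to Prf1-/- lung and 1.66 (1.06 to 2.56) to WT lung. A single barcode held 11.8% of the 34 Ung UMIs in bone, and without the top barcode of each group neither call was kept. Fen1 and Exo1, nucleases, were not called in any comparison.

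None of the nucleotide supply genes was called in any comparison. Tyms, the thymidylate synthase, was at 97.3 CPM in WT lung, 94.4 CPM in Prf1-/- lung and 107 CPM in bone. Rrm1 and Rrm2, the subunits of ribonucleotide reductase, were at 75.8, 80.4 and 92.3 CPM and at 79.7, 76.0 and 94.7 CPM. All 3 genes and Tk1 had ratios of 1.13 to 1.26 in bone against Prf1-/- lung and none was called. Their sum was 1.19 times the Prf1-/- lung level (1.07 to 1.32).

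The chromatin, histone supply and checkpoint genes gave 4 of the 7 calls in bone against Prf1-/- lung. Cdca7, which recruits the remodeller Hells to chromatin, had the highest ratio of all members. It was at 15.3 CPM in WT lung (11.6 to 19.7, 59 UMIs), 9.94 in Prf1-/- lung (7.31 to 13.2, 47 UMIs) and 31.6 in bone (22.6 to 42.8, 41 UMIs), with the bone interval above both lung intervals. The ratios were 3.17 (2.04 to 4.93) for bone to Prf1-/- lung, 2.07 (1.35 to 3.13) for bone to WT lung and 0.651 (0.434 to 0.972) for Prf1-/- lung to WT lung. The bone call against Prf1-/- lung was kept in all 11 alternative settings, at 2.56 to 3.70. Cdca7 UMIs were spread over barcodes, with at most 2 in 1 barcode of the hashtag groups. The share of positive barcodes was 4.73%, 3.03% and 10.4%, and after thinning 2.04% (1.32 to 2.99), 1.35% (0.806 to 2.03) and 4.66% (2.79 to 7.29).

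Hells, the partner of Cdca7, was at 69.6 CPM in WT lung (61.5 to 78.4), 57.5 in Prf1-/- lung (50.9 to 64.8) and 87.7 in bone (72.4 to 105). Uhrf1, which reads hemimethylated DNA behind the fork and brings the maintenance methylase, was at 59.0 (51.6 to 67.2), 56.5 (49.9 to 63.7) and 86.2 CPM (71.0 to 104). In both genes the bone level lay above the Prf1-/- lung level without overlap, with ratios of 1.52 (1.21 to 1.90) and 1.53 (1.21 to 1.91). Dtl, the substrate receptor that directs Cdt1 to degradation in S phase, was at 24.3, 17.8 and 28.5 CPM, with a ratio of 1.60 (1.06 to 2.39). These 3 ratios lie just past 1.5-fold, and the calls were kept in 5, 6 and 5 of 11 alternative settings. Slbp, which binds the stem-loop of histone mRNAs, had a lower value in bone, with 53.1 CPM in bone, 66.0 CPM in Prf1-/- lung and 64.2 CPM in WT lung and a ratio of 0.804 that was not called. Chaf1b, a histone chaperone subunit, and Clspn, a checkpoint mediator, had ratios of 0.872 and 1.10.

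The E2F and cyclin E genes were the role whose sum was nearest to equal in bone and Prf1-/- lung: 76.8 CPM in WT lung, 81.2 CPM in Prf1-/- lung and 82.3 CPM in bone, a ratio of 1.01 (0.810 to 1.26) for bone to Prf1-/- lung. E2f1 and Ccne1 had ratios of 1.10 and 1.25, while E2f8, a repressor of the family, and Ccne2 had 0.775 and 0.606, none called. The 4 members with the fewest UMIs by the unweighted mean of the 3 hashtag groups were Ccne2 (10.1, 14.0 and 8.46 CPM), Pole, Cdc45 and Exo1 (12.4, 9.94 and 12.3 CPM). Counts for these 4 genes were between 9 and 16 UMIs in bone, where only large differences would be detectable.

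Measured against the other 40 members in place of all genes, a setting chosen after seeing the data, 2 members stayed higher in bone than in Prf1-/- lung, Cdca7 (2.56, 1.64 to 3.98) and Cdt1 (1.80, 1.36 to 2.35). On this scale 2 were lower, Slbp (0.637, 0.483 to 0.828) and Ccne2 (0.484, 0.230 to 0.923). In bone against WT lung Cdca7 was higher (1.80, 1.18 to 2.73) and Cdc45 lower (0.349, 0.153 to 0.704). Of the members called by the total of all genes, the other 5 in bone against Prf1-/- lung were not called on this scale, Hells and Uhrf1 among them with 1.23 each. Against WT lung Cdt1 (1.42), Rpa2 (1.36) and Ung (1.44) were no longer called.

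Single barcodes held few member UMIs, and most barcodes held some. Without thinning, 15.6% of WT lung, 17.0% of Prf1-/- lung and 10.6% of bone barcodes had none, and the medians were 3, 3 and 5 UMIs. Since deeper barcodes hold more, each barcode was thinned to 1500 UMIs, which left out 1 Prf1-/- lung and 6 unlisted barcodes, and shares are means over thinning draws. At least 3 member UMIs were found in 38.8% of WT lung barcodes (36.1 to 41.6), 35.9% of Prf1-/- lung (33.5 to 38.4) and 46.8% of bone (41.7 to 51.9). Without thinning the shares were 52.9%, 52.1% and 66.8%. In bone the share lay above both lung shares, and the lung shares overlapped. At 6 or more the shares were 20.4% (18.2 to 22.7), 16.7% (14.9 to 18.7) and 23.3% (19.2 to 27.9), so only bone and Prf1-/- lung were apart. Near the cut of 3, 7.42% to 9.96% of barcodes in these groups had exactly 3 member UMIs and 11.7% to 14.0% exactly 2, so this class is a range on a scale and not a cell type.

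**Figure D3:**
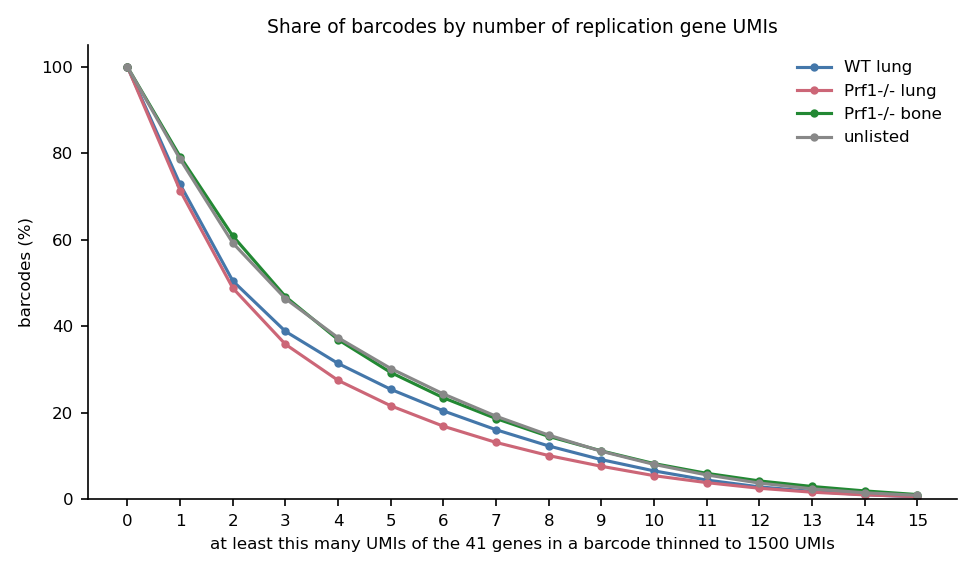
Percent of barcodes (y) with at least the number of UMIs of the 41 genes on the x axis, after thinning to 1500 UMIs, for WT lung, Prf1-/- lung, Prf1-/- bone and unlisted barcodes. The bone and unlisted curves run together above the WT lung curve, with Prf1-/- lung lowest, at 35.9% for 3 or more UMIs against 46.8% in bone.

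The member UMIs were concentrated in a part of the barcodes. The top 10% of barcodes held 33.7% of member UMIs in bone, 38.4% in Prf1-/- lung and 36.3% in WT lung. In the same order the mean per thinned barcode was 3.47, 2.68 and 2.94 UMIs, with variances of 3.79, 3.91 and 3.93 times the mean, where independent counting of a constant level would give about 1. The largest number of different members seen in 1 thinned barcode was 19 in bone, 17 in Prf1-/- lung and 16 in WT lung.

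Barcodes were then put in 4 classes of 0, 1 to 2, 3 to 5, and 6 or more member UMIs. In bone the classes held 20.7%, 32.4%, 23.4% and 23.4% of barcodes, in Prf1-/- lung 28.6%, 35.6%, 19.0% and 16.9%, and in WT lung 27.2%, 34.0%, 18.4% and 20.4%. Within the highest class the mean was 8.99 UMIs in bone, 8.75 in Prf1-/- lung and 8.69 in WT lung. The difference of bone from Prf1-/- lung in mean UMIs per barcode was 0.784, of which 0.710 went with the class shares and 0.0748 with levels inside classes. For Prf1-/- lung against WT lung the difference was -0.259, with -0.267 in class shares. The classes are cut from the same sum that is split. The mean in the class of 0 is fixed at 0, and the means of 1 to 2 and 3 to 5 are bounded. Most of any difference must therefore fall to class shares, so this split is a description and does not show how little lay inside classes.

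By gene the split differed. For the 41 members the class was set by the UMIs of the other 40. In bone against Prf1-/- lung, class shares held the larger part for some members. They held 63.0 of a difference of 72.8 UMIs per 1000 thinned barcodes for Pclaf, 31.9 of 43.6 for Mcm3 and 26.9 of 37.4 for Lig1. For Pcna, Cdt1, Cdca7 and Slbp the larger part lay inside classes. Pcna was at 222 UMIs per 1000 thinned barcodes in bone and 159 in Prf1-/- lung, a difference of 62.7, of which 29.0 went with class shares and 33.7 with the level inside classes. For Cdt1 the levels were 95.7 and 43.8, and 39.1 of the difference of 51.9 lay inside classes. Cdca7 was at 46.6 and 13.6 per 1000, and 29.6 of the difference of 33.0 lay inside classes. In the class with 6 or more UMIs of the other members Cdt1 was at 248 per 1000 in bone, 116 in Prf1-/- lung and 143 in WT lung. In barcodes with no other member UMI Cdca7 was at 19.4 per 1000 in bone (1.58 UMIs on average over draws) and 6.04 in Prf1-/- lung (2.64 UMIs), counts too low for a comparison. Slbp had 20.7 fewer UMIs per 1000 in bone, which combined 9.13 more from class shares and 29.9 fewer inside classes.

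All 41 members had more UMIs in barcodes with 6 or more UMIs of the other 40 than in barcodes with none, over the 3 hashtag groups together. The steepest gradients with at least 3 UMIs in the class of 0 were those of Clspn (4.67 to 153 UMIs per 1000 barcodes), Pclaf (32.9 to 880.0), Rrm2 (12.1 to 316), E2f1 (4.39 to 108) and Tk1 (11.2 to 252). Exo1, Cdc6, Mcm10, Ccne2, Pole and Cdc45 had under 3 UMIs in the class of 0, and between 38.0 and 80.1 UMIs per 1000 in the highest class. The flattest were Pold3 (36.6 to 111), Slbp (59.1 to 188) and Rfc2 (79.9 to 265). Pclaf, the member with the most UMIs, also had the highest variance over mean. It was 1.51 to 1.68 in the 3 hashtag groups and the unlisted barcodes. This measure can rise with the level of a gene, so it does not rank how unevenly the members were spread.

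**Figure D4:**
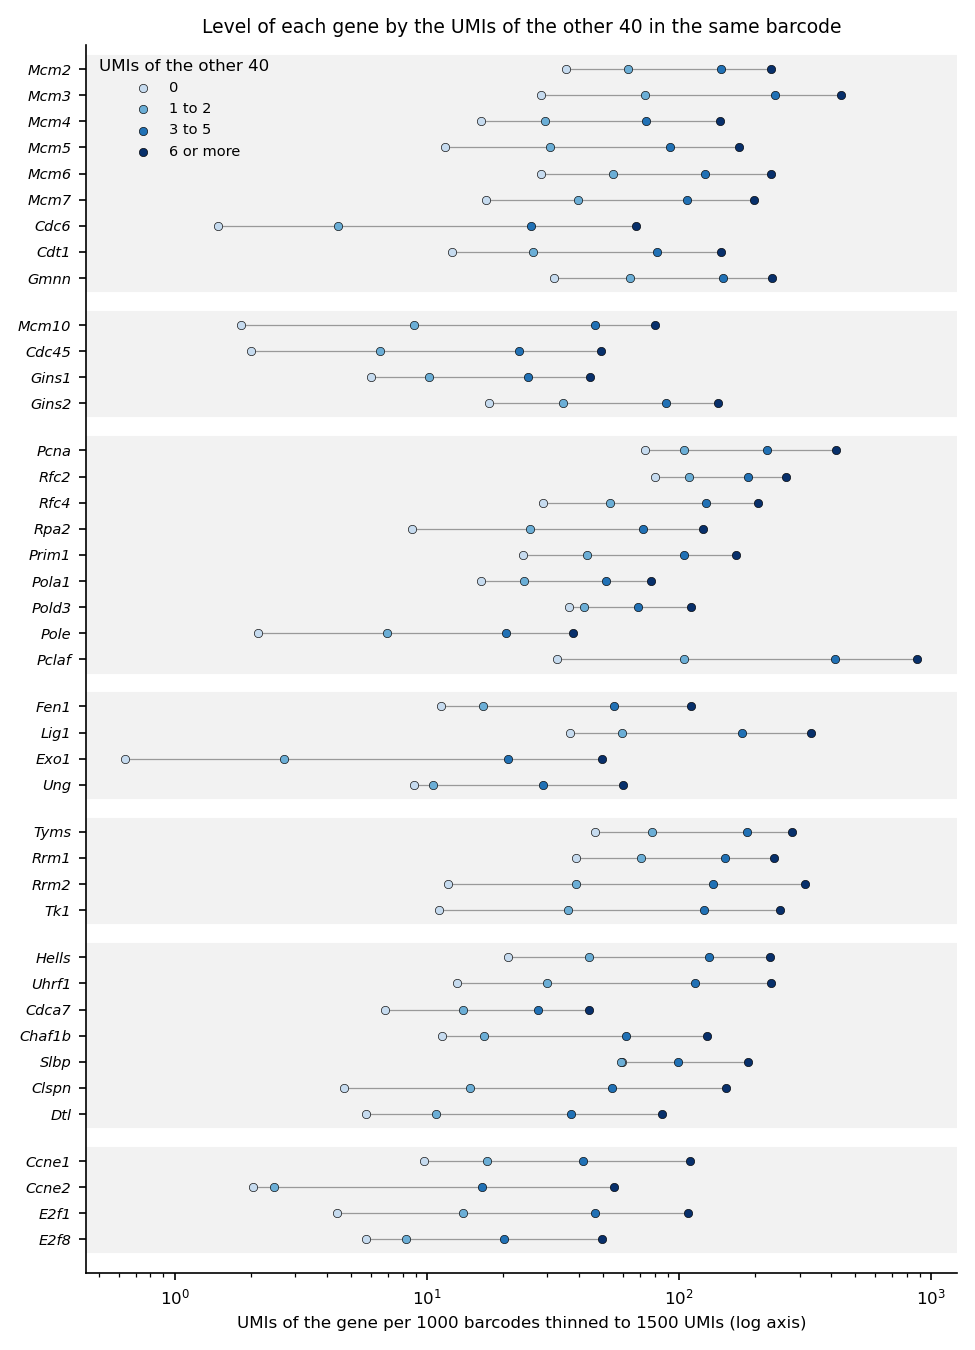
UMIs of each gene per 1000 barcodes thinned to 1500 UMIs (log axis) in barcodes with 0, 1 to 2, 3 to 5 and 6 or more UMIs of the other 40 genes, 3 hashtag groups together. Every gene has more UMIs in the highest class than in the class of 0, from Slbp, Pold3 and Rfc2 with short lines to Cdc6, Mcm10 and Exo1 with long ones.

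Depth moved with the member share even after thinning. In WT lung the thinned share with at least 3 member UMIs was 13.5% in barcodes of 1500 to under 2000 UMIs, 24.6% from 2000 to under 3000, 56.3% from 3000 to under 4000 and 60.8% at 4000 or more. Prf1-/- lung (15.1%, 21.4%, 51.4% and 63.2%) and bone (20.4%, 29.6%, 54.3% and 72.3%) had the same order. In each of these 4 ranges the bone interval overlapped those of both Prf1-/- lung and WT lung, and the lowest range held only 19 bone barcodes. From 3000 to under 4000 UMIs the WT lung share (56.3%) was above that of bone (54.3%). Barcodes with 6 or more member UMIs had a median of 3601 UMIs before thinning and 2.03% mitochondrial UMIs, and those with none 2506 UMIs and 2.72%, over the hashtag groups. Between groups, bone had a higher median depth (3107 against 2826.5 UMIs) and a lower median mitochondrial share (1.89% against 2.46%) than Prf1-/- lung. Among barcodes of 2000 to 4000 UMIs the summed ratio of bone to Prf1-/- lung was 1.17, and of the 7 calls only those of Cdca7 and Cdt1 were kept, while Mcm7 was called higher and Slbp lower. Among barcodes with at least 1500 genes it was 1.14, and of the 7 calls those of Cdca7, Cdt1, Rpa2 and Ung were kept. The part of depth in the group difference beyond these values was not tested.

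**Figure D5:**
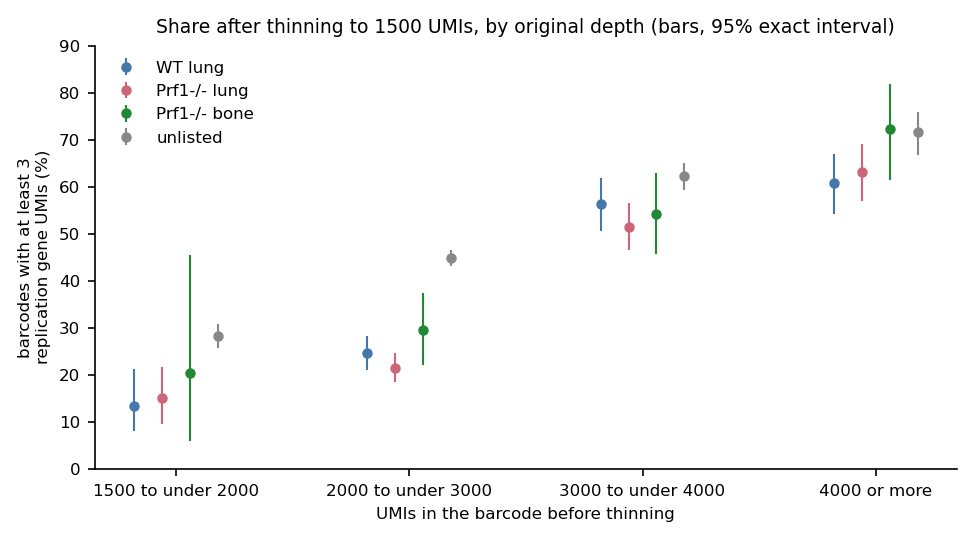
Percent of barcodes with at least 3 UMIs of the 41 genes after thinning to 1500 UMIs, by the UMIs of the barcode before thinning, with exact 95% intervals. In all groups the share rises from left to right, and from 2000 to under 3000 UMIs the unlisted barcodes (44.8%) lie above the 3 hashtag groups (21.4% to 29.6%).

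Barcodes not listed in the hashtag matrix had more member UMIs than the 3 hashtag groups together, at 2459.5 against 2182 CPM, a ratio of 1.13 (1.11 to 1.15). All 41 members had a ratio above 1, from 1.01 (Pcna) to 1.57 (Cdca7), with a median log2 ratio of 0.19 and 0.00 over all genes. Only Cdca7 was called (1.57, 1.29 to 1.91), against 0.297% of all 7738 genes called, 0.0905% higher and 0.207% lower. The Cdca7 call was kept in 8 of 11 alternative settings. One of the 3 that lost it kept only barcodes with melanoma markers and without other markers, where Cdca7 was at 1.49, Exo1 was called in its place and the summed ratio was 1.14. Stromal markers were at 37.6 CPM in unlisted and 10.0 CPM in hashtag barcodes, bone and cartilage markers at 5.59 and 2.22 CPM and epithelial markers at 30.7 and 85.9 CPM, and beyond that filter their part in the result was not tested. At least 3 member UMIs after thinning were found in 46.4% of unlisted barcodes (45.2 to 47.7) and 38.4% of the hashtag groups together (36.7 to 40.1). From 2000 to under 3000 UMIs the share was 44.8% (43.1 to 46.5) against 21.4% to 29.6% in the hashtag groups. At 4000 or more it was 71.6% (66.8 to 75.9). There the hashtag groups were at 60.8% in WT lung (54.2 to 66.9), 63.2% in Prf1-/- lung (57.1 to 69.0) and 72.3% in bone (61.4 to 81.9). The unlisted value lay above both lung intervals and inside the bone interval, while its own interval overlapped all 3. The direction depended on the gene minimum: with 500 genes in place of 1000 the ratio was 0.9901. Among barcodes of 2000 to 4000 UMIs it was 1.32. Within each hashtag group the shares of 3 equal sets of barcodes with low, middle and high hashtag counts had overlapping intervals, for example 34.1%, 36.9% and 36.8% in Prf1-/- lung.

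Other replication genes outside the 41, a list of 63, had sums closer together. Their sum was 3392 CPM in WT lung, 3281 CPM in Prf1-/- lung and 3645 CPM in bone, with a ratio of 1.11 (1.07 to 1.15) for bone to Prf1-/- lung and a median log2 ratio of 0.15. Of 51 tested, 2 were higher, Dctd, which supplies dUMP (29.2 against 15.7 CPM), and Mcmbp, which binds Mcm proteins (38.5 against 24.1 CPM), and none lower. Over all genes tested there, 2.64% were higher and 4.85% lower. Against WT lung 5 of 52 were higher in bone, Dctd, Dna2, Fbxo5, Pold2 and Timeless, with ratios of 1.52 to 2.01. Of all genes, 2.28% were higher in that comparison. None of the 49 tested in the lung comparison or the 52 tested in unlisted barcodes was called, against 1.76% and 0.297% of all genes. The 4 most abundant were Pole4, Dut, Nasp and Atad2, and Nasp, a histone chaperone, was at 174, 164 and 229 CPM in WT lung, Prf1-/- lung and bone.

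Mitosis genes, a list of 36, had none called in any of the 4 comparisons, against 0.297% to 7.58% of all genes. The mitosis sum in bone was 1.06 times that in Prf1-/- lung (1.02 to 1.10), and the median log2 ratio was 0.06. Birc5 was at 215, 211 and 238 CPM, Top2a at 193, 181 and 205, Cdca3 at 168, 152 and 199, and Ube2c at 161, 164 and 149 in WT lung, Prf1-/- lung and bone. At the level of barcodes the lists overlapped. Of barcodes with at least 3 member UMIs, 60.4% in bone, 60.9% in Prf1-/- lung and 64.4% in WT lung also had at least 3 mitosis UMIs, against 27.7%, 16.9% and 16.9% of the others. Barcodes with at least 3 UMIs of neither list made up 50.8% of WT lung, 53.3% of Prf1-/- lung and 38.4% of bone (33.6 to 43.5).

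Regulators of G1, a list of 18, had a lower sum in bone than in either lung group. The list mixes D cyclins with inhibitors of cyclin-dependent kinases, so its sum does not measure G1 control as a whole. The sum in bone was 0.747 times that in Prf1-/- lung and 0.787 times that in WT lung. Against Prf1-/- lung 4 of 13 tested were lower and none higher: Cdkn1a, the p21 inhibitor of cyclin-dependent kinases, Ccnd2, a D cyclin, Ccng1 and Btg2. Of all genes tested there, 4.85% were lower and 2.64% higher. Cdkn1a was at 146 CPM in WT lung, 170 CPM in Prf1-/- lung and 52.3 CPM in bone, a ratio of 0.308 (0.237 to 0.394). Ccnd2 was at 506, 538 and 306 CPM, and Cdk4 and Ccnd1 at 284, 293 and 309 CPM and at 210.1, 242 and 187 CPM. In WT lung Cdkn1a was at 349 UMIs per 1000 thinned barcodes with no member UMI and 116 in those with 6 or more, and in Prf1-/- lung at 315 and 228. Bone had 68 Cdkn1a UMIs in all before thinning, too few to compare its classes.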

How the data were processed

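The authors deposited UMI counts per gene and barcode and hashtag counts per barcode, whole numbers that were not normalized, per the file headers. Cell Ranger 6.1.2, Seurat 4.3.0 and mm10 are named in the submitters' processing notes, while the file headers name Cell Ranger 6.0.0. The read-level settings are not given in the sources used here, and the authors' cell metadata and Seurat object were not used here. The members and lists were chosen with earlier results of these data known.

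Barcodes with at least 1000 genes and at most 15% mitochondrial UMIs were kept and given a source by the largest hashtag count at 2 times the second or more. Other barcodes in the hashtag matrix were treated as mixed (possible doublets) and left out of the 3 groups, no doublet caller was run, and doublets within a source are not seen. The 4 groups held 3865546 UMIs in WT lung, 4726709 in Prf1-/- lung, 1299480 in Prf1-/- bone and 16458141 in unlisted barcodes. UMIs were summed per group and divided by all UMIs of the group (CPM). Intervals at 95% are exact Poisson for levels, exact conditional binomial for ratios and Clopper-Pearson for shares. Those for levels and ratios treat UMIs as independent and leave out the spread between barcodes. With 1 sample per group no p-value was computed.

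Shares after thinning to 1500 UMIs are the mean over all possible draws (hypergeometric), and classes are means over 50 draws. Values in every group are given for the members called in any comparison, the 12 with the highest mean CPM and the 4 with the lowest. Of the other lists, called genes and the 4 most abundant are named. Ratios and calls were run on simulated independent Poisson counts, the model that the intervals assume. This checked the computation only and cannot show how the intervals hold under the spread between barcodes. Promoters came from the RefSeq table for GRCm38.p6, in which 8 members had no entry. Alternatives covered hashtag calls (HTODemux of Seurat 5.3.0), gene, mitochondrial and depth filters, markers, scaling (TMM of edgeR 4.0.16), the fold and the thinning. R 4.3.3, Python 3.11.15, numpy 2.4.6, scipy 1.17.1 and pandas 2.3.3 were used.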

Additional observations from a re-analysis of the deposited data

How the results depend on the processing

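Summed over the 41 genes, the ratio of unlisted to hashtag barcodes was 0.9901 with a minimum of 500 genes, the only direction that turned among the summed ratios. It was 1.09 with a hashtag ratio of at least 5, 1.11 with HTODemux singlets, 1.09 with a minimum of 1500 genes, 1.32 among barcodes of 2000 to 4000 UMIs and 1.20 as a mean over barcodes. For bone to Prf1-/- lung the summed ratio was 1.30 with 500 genes, 1.14 with 1500 genes, 1.17 at 2000 to 4000 UMIs and 1.19 without the called members. For bone to WT lung it was 1.07 with 1500 genes and 1.05 at 2000 to 4000 UMIs. The number of members called in bone against Prf1-/- lung went from 7 to 4 with a hashtag ratio of 5, with 1500 genes, at 2000 to 4000 UMIs, without the top barcode of each group and by the UMIs of the other 40 members, and to 2 at 2-fold. These 4 were not always among the 7: at 2000 to 4000 UMIs and by the other 40 members only Cdca7 and Cdt1 were. In bone against WT lung it went from 5 to 3 with a hashtag ratio of 5, with 1500 genes and with the marker filter, and to 2 at 2000 to 4000 UMIs, at 2-fold and by the other 40 members, with Uhrf1 (hashtag ratio of 5) and Clspn (2000 to 4000 UMIs) among those called there and not before. In Prf1-/- lung against WT lung it went from 3 to 0 at 2-fold and 1 by the other 40 members. In unlisted barcodes it went from 1 to 0 with 500 genes, at 2-fold and by the other 40 members, to 2 with 1500 genes and to 5 at 2000 to 4000 UMIs.

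The share of barcodes with at least 3 member UMIs, in the order WT lung, Prf1-/- lung, bone and unlisted, was 61.6%, 59.2%, 65.1% and 67.7% with 1500 genes, 62.0%, 60.5%, 69.7% and 71.5% when thinned to 2500 UMIs and 52.9%, 52.1%, 66.8% and 58.9% when not thinned. At 5 or more UMIs it was 25.4%, 21.4%, 29.1% and 30.2%. At 2000 to 4000 UMIs it was 32.2% in Prf1-/- lung, 41.4% in bone and 49.1% in unlisted barcodes, and with 500 genes 40.6% in unlisted barcodes. The cause of these shifts was not tested. Leaving out the called members, leaving out Pclaf and scaling by the other 40 members were chosen after seeing the data. No paired analysis was possible because each source was 1 hashtag group in 1 library. Bone had the fewest barcodes (385) and the widest intervals, and no interval holds the spread between mice.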

Other observations

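Genes outside the lists were compared between barcodes with 6 or more member UMIs and barcodes with none, over the 3 hashtag groups. The classes, about 594 and 845 barcodes, were cut from the members' own UMIs, so these values only describe which genes go with them. Of 5728 genes with a mean of at least 20 CPM, 656 were at least 1.5-fold higher and 457 lower, with intervals leaving out 1. The 10 with the highest ratios were Aunip, Hist1h3c, Dscc1, Esco2, Hist1h2ae, Hist2h2bb, Slfn9, Hist1h3e, Mxd3 and Hist1h1d. Hist1h2ae, a replication-dependent histone H2A gene, was at 137 CPM in the high class and 5.19 CPM in the class of 0, a ratio of 26.5 (14.95 to 51.8). Esco2, an acetyltransferase that sets sister chromatid cohesion in S phase, had a ratio of 33.7 (12.9 to 126) and Dscc1, a subunit of an alternative clamp loader, one of 34.4 (14.4 to 107). Aunip had only 2 UMIs in the class of 0, and its ratio was 48.4 (13.0 to 405). Hist1h2bc, a histone H2B gene, was at 39.1 CPM in the high class and 228 CPM in the class of 0, a ratio of 0.171 (0.135 to 0.215). Kdm5b (0.148), Mxd4 (0.225) and Kcnj13 (0.240) were the other low ones, and these 4 were chosen after their values were seen.

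The 242 mixed-hashtag barcodes, in which no hashtag count was 2 times the next, held 45.3% with at least 3 member UMIs after thinning (39.1 to 52.0). Their neutrophil markers summed to 74.9 CPM, against at most 0.635 CPM in the other 4 groups.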
